A study of Mus musculus with 8 samples.

Results

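The genes described here are 10 members of the Bcl2 family, which set whether a cell survives or enters apoptosis: Bcl2, Bcl2l1, Mcl1, Bax, Bak1, Bid, Bcl2l11, Bad, Pmaip1 and Bbc3. They were taken by symbol, through the Ensembl identifiers of the count table, and make up 10 of its 37991 genes. RNA was sequenced from B-cell-biased lymphoid progenitors, an early bone marrow population that mostly gives rise to B cells, in 4 pools from mice with the genotype H2afy-/- (group H2afy_KO) and 4 from H2afy+/+ mice (group H2afy_WT). The gene product is macroH2A1, a variant of histone H2A. Mice of both groups were 5 to 12 weeks old, no treatment is given for either, and every pool combined sorted cells of 2 to 3 mice. The labels do not give the deleted part of the H2afy allele or the strain.

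Members of the family fall into 3 kinds. Pro-survival proteins (Bcl2, Bcl2l1 and Mcl1) hold the pore-forming effectors Bax and Bak1 in check at the mitochondrial surface. BH3-only proteins (Bcl2l11, also called Bim; Bbc3, Puma; Pmaip1, Noxa; Bid; and Bad) bind pro-survival proteins or effectors and tip a cell towards release of cytochrome c and activation of caspases. In developing lymphocytes, interleukin-7 signalling is known to sustain Bcl2 and Mcl1, and Bcl2l11 is a well-known brake on lymphocyte numbers.

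Promoter sequences are shown for the 3 pro-survival genes, since Bcl2 and Bcl2l1 had fold changes of opposite sign between the genotypes while Mcl1 differed most between pools of H2afy_KO. None of the 3 was called in the main test between genotypes, which is given below. Each is the 250 bases before a RefSeq transcription start, written 5′ to 3′ on the gene's strand, with matches to the Sp1 GC box GGGCGG, on either strand, in capitals. The coordinates are those of an exact match to NCBIM37, the assembly also called mm9. Bcl2 is at chr1:108610868-108611117 (minus strand), Bcl2l1 at chr2:152657465-152657714 (minus strand, the farthest upstream of its 3 RefSeq starts) and Mcl1 at chr3:95462393-95462642 (plus strand).
Bcl2: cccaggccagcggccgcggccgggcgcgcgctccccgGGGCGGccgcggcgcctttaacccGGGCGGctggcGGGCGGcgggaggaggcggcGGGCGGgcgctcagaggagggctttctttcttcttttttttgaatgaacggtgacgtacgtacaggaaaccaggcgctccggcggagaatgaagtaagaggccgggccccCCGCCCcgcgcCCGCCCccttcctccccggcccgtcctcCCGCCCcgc
Bcl2l1: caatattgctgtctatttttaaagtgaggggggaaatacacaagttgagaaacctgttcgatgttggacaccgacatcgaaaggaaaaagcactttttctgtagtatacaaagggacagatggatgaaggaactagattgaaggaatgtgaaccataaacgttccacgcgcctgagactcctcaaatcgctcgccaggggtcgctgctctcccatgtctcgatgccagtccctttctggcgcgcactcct
Mcl1: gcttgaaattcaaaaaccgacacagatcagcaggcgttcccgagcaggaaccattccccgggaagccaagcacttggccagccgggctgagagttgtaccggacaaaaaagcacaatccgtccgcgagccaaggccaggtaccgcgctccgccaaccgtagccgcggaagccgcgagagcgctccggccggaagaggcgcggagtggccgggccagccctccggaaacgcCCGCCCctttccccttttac
The Bcl2 window held 7 GC boxes and was 74.8% G and C. The Bcl2l1 window held 0 and was 47.6% G and C, and the Mcl1 window held 1 and was 64.4% G and C. A GC box was present in 32.7% of all 32851 RefSeq promoter windows of this length. Searches on both strands for the GAS element TTCNNNGAA, which STAT factors bind, the forkhead core GTAAACA, the CCAAT box, the TATA box (searched as TATAAA), the cyclic AMP response element TGACGTCA and the E box CAGGTG found no match in these 3 windows. These motifs occurred in 7.02%, 3.17%, 33.8%, 12.4%, 1.55% and 17.2% of all windows, in that order. A link between the motifs of these windows and the genotype was not tested.

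The pools held 21330088 to 29029765 gene counts. Levels are CPM, counts scaled to a common library total with TMM factors, which correct for the make-up of each library, and log2 fold changes are H2afy_KO over H2afy_WT. H2afy itself had 1953, 1744, 1423 and 1517 CPM in pools 1 to 4 of H2afy_KO and 2455, 2567, 2063 and 1981 CPM in those of H2afy_WT. These groups did not overlap, as in 2.35% of all genes in this direction, with a log2 fold change of -0.45 (SE 0.15). Transcript counts over the gene remained in all H2afy_KO pools, and this partial difference does not by itself check the genotype labels. All 13 markers of B-lineage progenitors were tested and 0 were at 0, with a summed level of 6756 to 8307 CPM in H2afy_KO and 9339 to 11696 CPM in H2afy_WT. Immunoglobulin genes took 0.402%, 10.0%, 39.0% and 33.4% of the counts in pools 1 to 4 of H2afy_KO and 3.47%, 0.948%, 19.5% and 12.9% of those in H2afy_WT. The 10 plasma cell markers summed to 200.0 to 21081 CPM in H2afy_KO and 619 to 9237 CPM in H2afy_WT, and the 10 mature B cell markers to 2312 to 8458 and 2174 to 4142 CPM. The 10 granulocyte and monocyte markers summed to 853 to 3754 and 1166 to 5440 CPM, the 8 erythroid and megakaryocyte markers to 3.37 to 15.3 and 3.02 to 55.9 CPM, and the 10 T and natural killer cell markers to 421 to 800.0 and 666 to 732 CPM. None of these markers was at 0 in every pool. Of the T and natural killer cell markers, Lck (220 to 410 CPM over the pools) and Nkg7 (179 to 371 CPM) made up most of the sum. Each other gene of that list was at 14.5 CPM or less, and Cd3e, Cd3d and Cd3g were at 1.27 CPM or less. In sorted bulk samples, more cells of a type and more RNA per cell cannot be told apart.

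Of the 10 members, 9 passed the filter on low counts and Bbc3 did not. In the edgeR quasi-likelihood test between genotypes, 0 of the 9 were called at an adjusted p under 0.05, and 0.0% of the 13722 genes tested were called. At an unadjusted p under 0.05 edgeR had 1040 genes (7.58%), Bcl2 and Bcl2l1 among them, and DESeq2 called 118 genes (0.86%) with 0 members. In further fits the replicate numbers were read as pairing the pools, which the labels do not state. With that number as a block edgeR called 15 genes (0.109%) with 0 members. DESeq2 with the block called 520 genes (3.79%), among them Bcl2 and Pmaip1, both in the 1.95% that were called higher in H2afy_KO. It also called H2afy, lower in H2afy_KO (adjusted p = 0.000226), where the main edgeR test gave an adjusted p of 0.504. The median log2 fold change of the 9 tested members was 0.09, beside 0.0 over all genes tested, and 8 of the 9 were positive, beside 50.1% of all genes. Among the positive ones, Bax, Bak1, Bid and Bcl2l11 were at 0.03 to 0.09, each less than its SE. The members were measured in the same pools, so their signs are not independent.

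**Figure D1:**
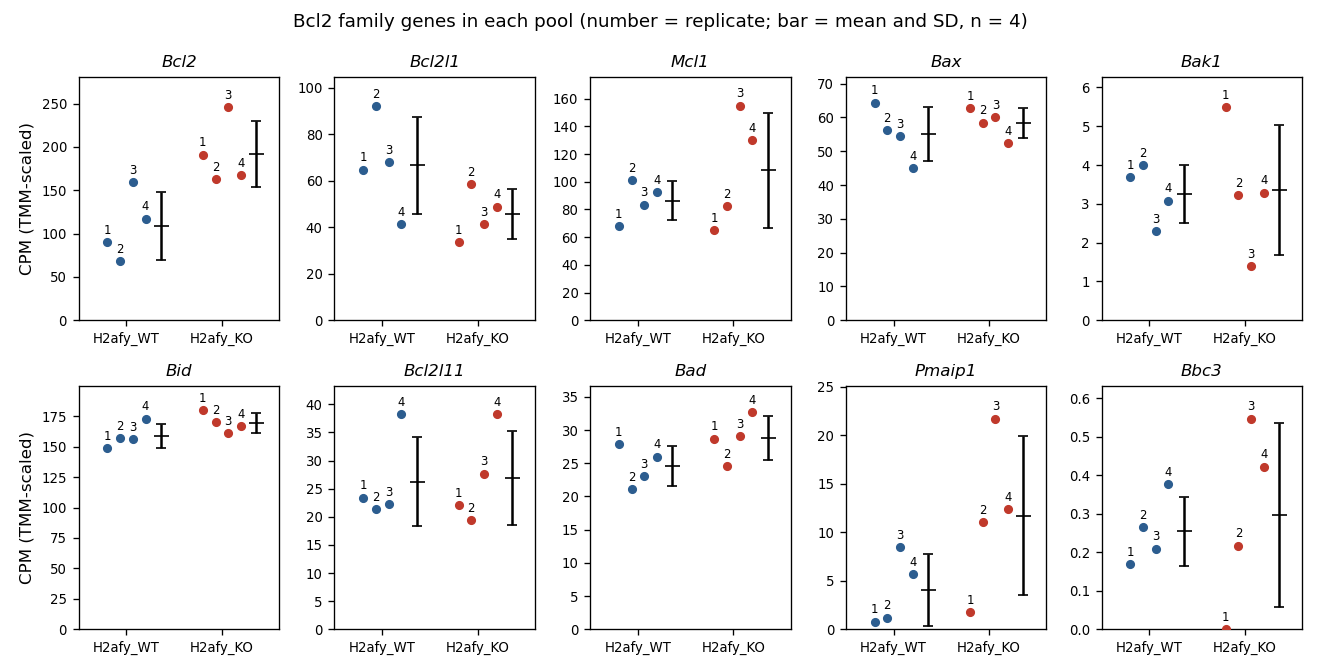
TMM-scaled CPM (vertical axes, each from 0) of the 10 Bcl2 family genes in each of the 4 H2afy_WT and 4 H2afy_KO pools; points are pools numbered by replicate, and the black bar is the mean with its SD. Bcl2 is the only member whose groups do not overlap (163 to 246 CPM in H2afy_KO, 68.5 to 159 in H2afy_WT), while Bid and Bax lie close together in all pools.

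Per length of annotated exon, in CPM per kilobase averaged over the 8 pools, the order of levels was Bid (46.3 ± 2.89), Bax (42.4 ± 4.65), Mcl1 (27.9 ± 8.92), Bcl2 (20.9 ± 7.95), Bad (13.3 ± 1.84), Bcl2l1 (11.9 ± 4.0), Bcl2l11 (3.31 ± 0.946), Pmaip1 (2.98 ± 2.70), Bak1 (1.37 ± 0.500) and Bbc3 (0.137 ± 0.0841; SD over n = 8). Bax was above Mcl1, Bcl2l1 above Bcl2l11, and Bak1 above Bbc3 in 8 of 8 pools. Several neighbours were not separated by their spread: Bcl2 was above Bad in 6 pools, and Bad above Bcl2l1, Bcl2l11 above Pmaip1 and Pmaip1 above Bak1 in 5 pools each. Of the effectors, then, Bax transcripts exceeded those of Bak1 in every pool, with ranges of 33.6 to 48.1 and 0.580 to 2.28 CPM per kilobase. These values use the union of annotated exons, so a gene whose cells use a short isoform is understated.

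Among the pro-survival genes, Bcl2 had the smallest p for genotype. Bcl2 (ENSMUSG00000057329, chromosome 1, 108434755 to 108610851, NCBIM37) had 191, 163, 246 and 167 CPM in pools 1 to 4 of H2afy_KO and 89.7, 68.5, 159 and 117 CPM in those of H2afy_WT. All 4 H2afy_KO pools lay above all 4 H2afy_WT pools, although H2afy_KO 2 exceeded H2afy_WT 3 by little. Bcl2 was the only 1 of the 9 tested members whose groups did not overlap, beside 4.53% of all genes (2.18% higher and 2.35% lower in H2afy_KO). Its log2 fold change was 0.82 (SE 0.25, 95% interval 0.27 to 1.37), a fold of 1.77, with an edgeR adjusted p of 0.473. Between pools of the same number the log2 differences were 1.09, 1.25, 0.63 and 0.51. Bcl2, Bad and Pmaip1, 3 of the 9, differed in 1 direction in all 4 such pairs and were higher in H2afy_KO, as were 10.1% of all genes, with 21.0% in either direction. With the replicate block edgeR gave 0.87 (SE 0.14, adjusted p = 0.0664) and DESeq2 an adjusted p of 7.76e-06, and over all alternatives adjusted p-values ran from 7.76e-06 to 0.894.

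The pool with the lowest immunoglobulin share, H2afy_KO 1, with 200.0 CPM of summed plasma cell markers, had 191 CPM of Bcl2. That was above each of the 4 H2afy_WT pools, whose share was higher. In H2afy_WT, Bcl2 ran in the order of the immunoglobulin share, from 68.5 CPM at a share of 0.948% to 159 CPM at 19.5%. In H2afy_KO it did not, since H2afy_KO 1 was second highest. With the log2 immunoglobulin share as a covariate the genotype difference of Bcl2 was 0.81 (SE 0.22, edgeR adjusted p = 0.346), and without both H2afy_KO 3 and 4 it was 0.72 (SE 0.30, edgeR adjusted p = 0.888). The 8 markers of plasmacytoid dendritic cells, all tested, summed to 1047 to 1461 CPM in H2afy_KO and 821 to 1172 CPM in H2afy_WT. All 8 had a positive log2 fold change (median 0.68), beside 50.1% of all genes, and 0 were called. Irf8 (272 to 355 CPM in H2afy_KO, 122 to 180 in H2afy_WT) and Cox6a2 (181 to 230 and 112 to 148) did not overlap, beside 4.53% of all genes. Tcf4, the largest part of the sum, was at 0.11 (SE 0.14). The summed B-progenitor markers were lower in H2afy_KO without overlap. The part of either marker set in the Bcl2 difference was not tested.

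Bcl2l1, which encodes Bcl-xL, pointed the other way. Bcl2l1 (ENSMUSG00000007659, chromosome 2, 152593052 to 152657464) had 33.7, 58.6, 41.3 and 48.9 CPM in pools 1 to 4 of H2afy_KO and 64.8, 92.1, 68.1 and 41.4 CPM in those of H2afy_WT. H2afy_WT 4 lay within the H2afy_KO range, and the other 3 H2afy_WT pools were above all H2afy_KO pools. Bcl2l1 had a log2 fold change of -0.55 (SE 0.24, 95% interval -1.08 to -0.01, edgeR adjusted p = 0.637), and H2afy_KO was the lower pool in 3 of the 4 same-numbered pairs. Leaving out H2afy_WT 2, the highest pool, gave -0.35 and leaving out H2afy_WT 4 gave -0.72.

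Mcl1, which encodes a short-lived pro-survival protein, varied more in transcript level between H2afy_KO pools than between genotypes. Mcl1 (ENSMUSG00000038612, chromosome 3, 95462643 to 95467099) had 65.2, 82.4, 155 and 130 CPM in pools 1 to 4 of H2afy_KO and 68.1, 101, 83.5 and 92.3 CPM in those of H2afy_WT. H2afy_KO 3 and 4, which also had the highest immunoglobulin shares, were the 2 highest pools, and H2afy_KO 1 was the lowest. Mcl1 had a log2 fold change of 0.33 (SE 0.26, 95% interval -0.25 to 0.91, edgeR adjusted p = 0.806). Its sign turned without both H2afy_KO 3 and 4 (-0.21, SE 0.19).

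The balance among these 3 transcripts differed between pools on the length-scaled values. Bcl2 made up 50.7%, 38.7%, 39.1% and 32.8% of their sum in pools 1 to 4 of H2afy_KO and 27.3%, 16.5%, 36.6% and 31.7% in those of H2afy_WT. Bcl2l1 made up 13.6%, 21.1%, 9.96% and 14.6% in H2afy_KO and 30.0%, 33.6%, 23.8% and 17.0% in H2afy_WT. Each H2afy_KO pool had more Bcl2 and less Bcl2l1 in this mix than the H2afy_WT pool of its number, though the groups overlapped in both shares. The ratio of Bcl2 to Bcl2l1 was 3.74, 1.84, 3.93 and 2.25 in pools 1 to 4 of H2afy_KO and 0.911, 0.490, 1.54 and 1.87 in those of H2afy_WT. Here H2afy_KO 2 lay just under H2afy_WT 4. No test was made of these ratios, whose genes were chosen with their values known.

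**Figure D2:**
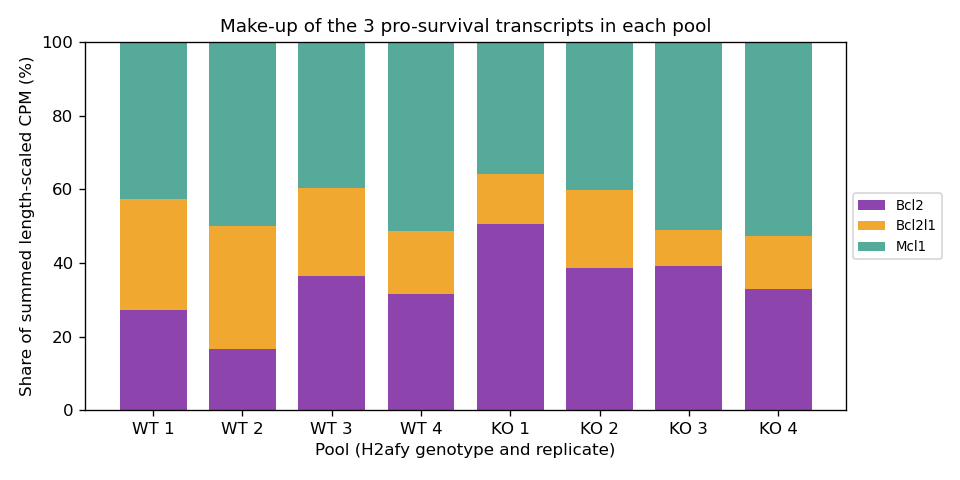
Share of Bcl2, Bcl2l1 and Mcl1 (vertical axis, percent) in the sum of their length-scaled CPM in each pool (horizontal axis). Bcl2 takes 32.8% to 50.7% in H2afy_KO and 16.5% to 36.6% in H2afy_WT, and Bcl2l1 9.96% to 21.1% and 17.0% to 33.6%.

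The effectors showed no genotype difference past the test. Bax, which moves to the outer mitochondrial membrane when activated, had 62.7, 58.5, 60.1 and 52.3 CPM in pools 1 to 4 of H2afy_KO and 64.4, 56.3, 54.5 and 45.0 CPM in those of H2afy_WT. The groups overlapped almost throughout, and number 4 was the lowest pool in both. The log2 fold change was 0.09 (SE 0.14, 95% interval -0.21 to 0.38, edgeR adjusted p = 0.921). Bak1, an effector resident in that membrane, had 5.49, 3.22, 1.4 and 3.29 CPM in pools 1 to 4 of H2afy_KO and 3.68, 4.0, 2.30 and 3.08 CPM in those of H2afy_WT. Its lowest level in each genotype was in the pool with the highest immunoglobulin share, number 3, and its log2 fold change was 0.04 (SE 0.39, 95% interval -0.82 to 0.90, edgeR adjusted p = 0.989). At 23 to 173 counts per pool, Bak1 was measured with less precision than Bax at 991 to 1974 counts.

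Of the BH3-only genes, Bid, which is cut by caspase-8 and carries the death-receptor signal to mitochondria, had the highest and steadiest level. Bid had 180.0, 170.0, 161 and 167 CPM in pools 1 to 4 of H2afy_KO and 149, 157, 156 and 173 CPM in those of H2afy_WT, so that its highest pool was 1.21 times its lowest. Its log2 fold change was 0.09 (SE 0.11), with a 95% interval of -0.15 to 0.33 and an edgeR adjusted p of 0.878. Bad, which growth-factor signalling inactivates by phosphorylation, had 28.7, 24.6, 29.1 and 32.7 CPM in pools 1 to 4 of H2afy_KO and 27.9, 21.1, 23.1 and 26.0 CPM in those of H2afy_WT. H2afy_KO was the higher pool in each same-numbered pair by 0.04 to 0.34 on the log2 scale, and the groups overlapped. The log2 fold change of Bad was 0.23 (SE 0.15, 95% interval -0.10 to 0.56, edgeR adjusted p = 0.758).

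Bcl2l11 differed by pool and not measurably by genotype. It had 22.1, 19.4, 27.7 and 38.3 CPM in pools 1 to 4 of H2afy_KO and 23.4, 21.3, 22.2 and 38.2 CPM in those of H2afy_WT. Number 4 was the highest pool in both genotypes, at nearly the same value. The log2 fold change was 0.03 (SE 0.25, 95% interval -0.52 to 0.59, edgeR adjusted p = 0.987), an interval that still allows a difference of either sign. Bbc3, a p53 target, was at the edge of detection, with 0, 5, 9 and 10 counts in pools 1 to 4 of H2afy_KO and 5, 7, 5 and 10 counts in those of H2afy_WT, or at most 0.546 CPM. It was not tested.

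Pmaip1, whose protein binds Mcl1 in particular, had the widest range of the members tested. It had 1.75, 11, 21.7 and 12.4 CPM in pools 1 to 4 of H2afy_KO and 0.777, 1.21, 8.45 and 5.67 CPM in those of H2afy_WT, a ratio of 27.9 between the highest and lowest pools. The 3 pools under 2 CPM were the 3 with the lowest immunoglobulin shares, and they came from both genotypes. The log2 fold change was 1.54 (SE 0.96, 95% interval -0.71 to 3.79, edgeR adjusted p = 0.754), and it ran from 1.07 without H2afy_KO 3 to 2.20 without H2afy_WT 3. Between same-numbered pools the log2 differences were 1.09, 3.11, 1.35 and 1.12, and DESeq2 with the replicate block gave 1.68 (SE 0.38) with an adjusted p of 0.000761. Adjusted p-values over all alternatives ran from 0.000761 to 1.0. With the immunoglobulin share as a covariate it was 1.17 (SE 0.39, edgeR adjusted p = 0.399), and without both H2afy_KO 3 and 4 it was 0.67 (SE 1.15, edgeR adjusted p = 0.994).

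**Figure D3:**
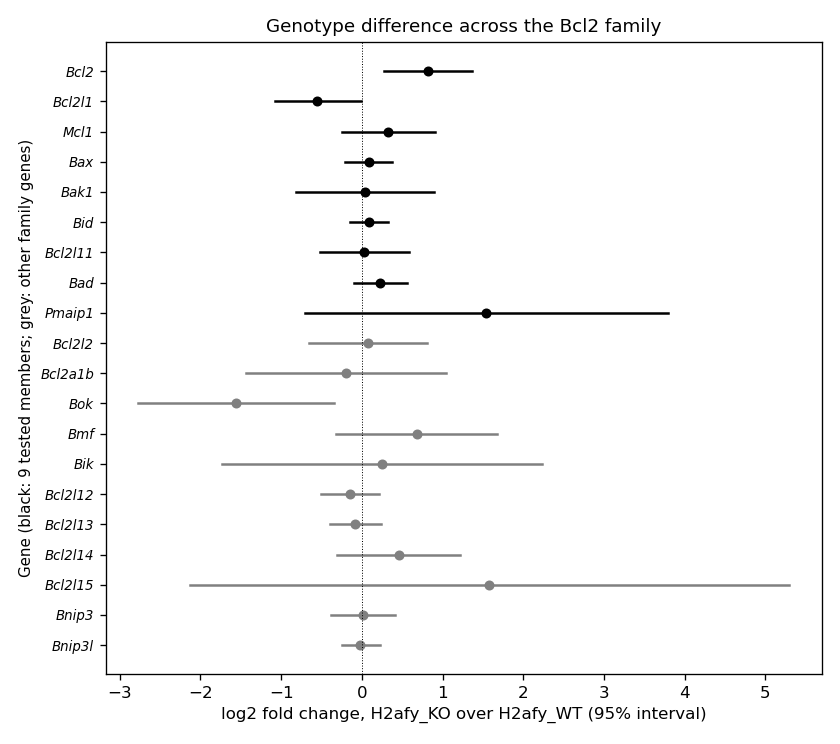
Log2 fold change of H2afy_KO over H2afy_WT (horizontal axis) with its 95% interval for 9 tested members (black) and 11 other genes of the family (grey). The intervals of Bcl2 (0.27 to 1.37), Bcl2l1 (-1.08 to -0.01) and Bok (-2.77 to -0.35) leave out 0, and edgeR called none of the 20 genes after adjustment over all genes, while DESeq2 with the replicate block called Bcl2, Pmaip1 and Bok.

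The relation to the immunoglobulin share was tested across all genes, with genotype in the model. The slope is the log2 change in level per doubling of the share. Of the 13722 genes, 260 were called (1.89%), 255 of them with a positive (1.86%) and 5 with a negative slope (0.0364%), and Pmaip1 was the only member of the 9 tested. Its slope was 0.57 (SE 0.10, 95% interval 0.36 to 0.78, edgeR adjusted p = 0.0142), a fold of 1.48 per doubling. The call was lost without H2afy_KO 1 (slope 0.65, edgeR adjusted p = 0.137), H2afy_KO 3 (0.56, edgeR adjusted p = 0.0524) or H2afy_WT 2 (0.58, edgeR adjusted p = 0.0565). With the replicate block the slope was 0.25 (SE 0.14, edgeR adjusted p = 0.975), in a fit that called 41 genes (0.299%). Shares were higher in numbers 3 and 4 than in 1 and 2 of both genotypes, so number and share are partly confounded.

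Mcl1 had a slope of 0.11 (SE 0.05, edgeR adjusted p = 0.326), Bcl2l11 of 0.09 (SE 0.05, edgeR adjusted p = 0.444) and Bcl2 of 0.08 (SE 0.05, edgeR adjusted p = 0.474). With the replicate block these slopes were 0.0045 (SE 0.09), 0.0024 (SE 0.06) and -0.01, and that of Mcl1 was 0.04 (SE 0.08) without H2afy_KO 1 and 0.17 (SE 0.04, edgeR adjusted p = 0.0515) without H2afy_WT 2. For Bcl2 the slope was 0.25 (SE 0.05, edgeR adjusted p = 0.0792) without H2afy_KO 1, the pool that combined the lowest share with a high Bcl2 level. Bak1 had a slope of -0.18 (SE 0.07, edgeR adjusted p = 0.240). Slopes of Bax, Bid, Bad and Bcl2l1 lay between -0.03 and 0.02. Some markers of plasma cells and of mature B cells followed the share in the same fit. A positive slope past the test was found for 6 of 10 plasma cell markers, beside 1.86% of all genes, with Tnfrsf17 at 1.05 (SE 0.08). It was found for 3 of 10 mature B cell markers, with Ms4a1 at 0.89 (SE 0.09). Their part in the slope of Pmaip1 was not tested.

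**Figure D4:**
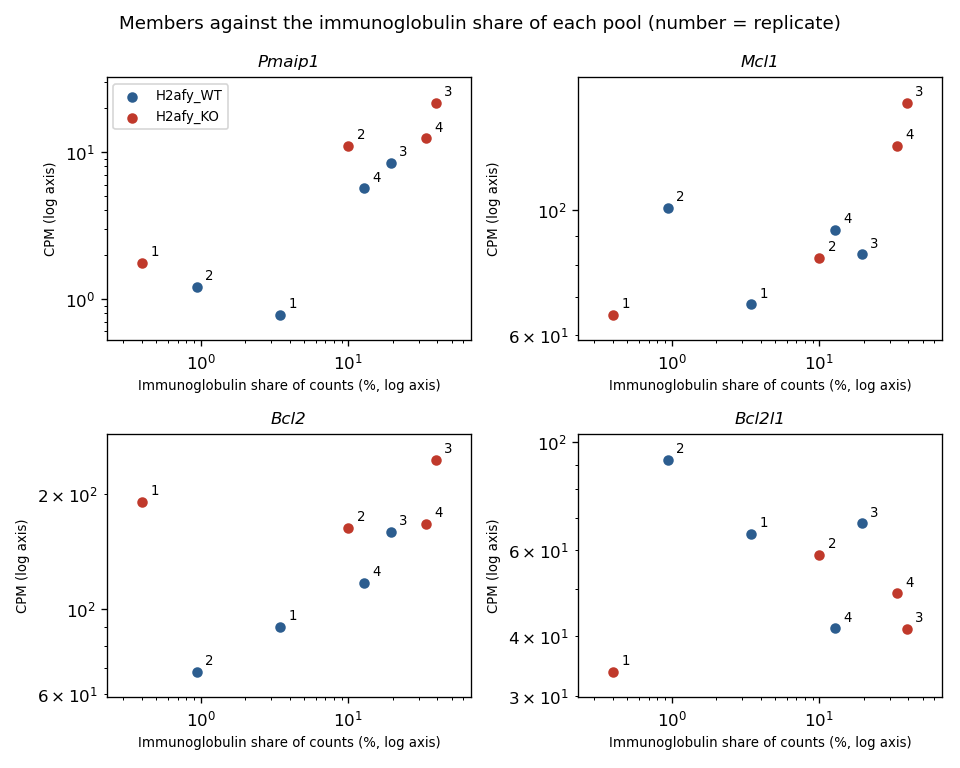
Level in CPM (vertical, log axes) of Pmaip1, Mcl1, Bcl2 and Bcl2l1 against the share of immunoglobulin genes in the counts of each pool (horizontal, percent, log axes), with pools numbered by replicate. Pmaip1 is at 0.777 to 1.75 CPM in the 3 pools with the lowest share and at 5.67 to 21.7 CPM in the other 5, while Bcl2 in H2afy_KO 1 (191 CPM) lies apart from the order seen in H2afy_WT.

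The ratio of Mcl1 to Pmaip1, a pro-survival transcript to that of a BH3-only protein, ran from 63.3 and 66.6 in H2afy_WT 2 and 1 to 5.45 in H2afy_KO 3. It was 28.4 in H2afy_KO 1 and between 5.45 and 12.3 in the other 5 pools. The ratio of Bcl2 to Bcl2l11 was 9.68, 9.41, 9.92 and 4.86 in pools 1 to 4 of H2afy_KO and 4.28, 3.59, 8.02 and 3.43 in those of H2afy_WT. Number 4 had the lowest ratio and the highest Bcl2l11 in both genotypes. In H2afy_WT, however, number 2 was close to it at 3.59 with a low Bcl2l11 level. The ratio of Bcl2 to Bax was 0.520 to 0.763 in H2afy_KO and 0.227 to 0.544 in H2afy_WT, with H2afy_KO 2 under H2afy_WT 3.

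Of 16 further genes of the family, 11 passed the filter, 0 were called for genotype, and their median log2 fold change was 0.01. Bok, a less studied relative of Bax, had 1.78, 4.26, 0.910 and 1.56 CPM in pools 1 to 4 of H2afy_KO and 6.01, 12.3, 3.39 and 3.57 CPM in those of H2afy_WT. It was lower in H2afy_KO in each same-numbered pair, as in 10.9% of all genes, with only H2afy_KO 2 inside the H2afy_WT range. The log2 fold change of Bok was -1.56 (SE 0.55, edgeR adjusted p = 0.522), from -2.14 without H2afy_KO 2 to -1.02 without H2afy_WT 2. DESeq2 with the block called it (-1.58, SE 0.31, adjusted p = 6.96e-05), and over the alternatives adjusted p-values ran from 6.96e-05 to 0.955. Bcl2l15 had 0.0952, 0.217, 10.4 and 6.54 CPM in pools 1 to 4 of H2afy_KO and 0.236, 0.113, 3.01 and 2.37 CPM in those of H2afy_WT, and it was the only one of the 11 that edgeR called for the immunoglobulin share (slope 1.15, SE 0.18, edgeR adjusted p = 0.00924). With the replicate block this call was lost (slope 0.44, SE 0.23, edgeR adjusted p = 0.964), and DESeq2 also called Bik (slope 0.70, SE 0.22, adjusted p = 0.0238). The BH3-only gene Bmf was at 0.68 (SE 0.45) for genotype and Bik, under 1 CPM in all pools, at 0.25 (SE 0.90). The pro-survival gene Bcl2l2 was at 0.08 (SE 0.33). The more distant relatives Bnip3, Bnip3l, Bcl2l12, Bcl2l13 and Bcl2l14 lay between -0.15 and 0.46. Bcl2a1b (-0.20, SE 0.56) is uncertain, since it belongs to a set of near-identical copies, and 49.1% of its exon bases overlap Mthfs. Bcl2a1c was at 0 in every pool.

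Some counts of members may include reads of a neighbour, as the library kit does not mark strand. Exon bases shared with a gene on the opposite strand made up 25.8% for Bad (with Gpr137), 17.7% for Bid (with Bcl2l13), 14.8% for Bak1 (with Ggnbp1) and 7.8% for Bcl2 (with D630008O14Rik). No such overlap was annotated for Bcl2l1, Mcl1, Bax, Bcl2l11, Pmaip1 or Bbc3.

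Genes around the family were read from lists of the same pathways, and the main edgeR test called 0 of their tested genes for genotype, in either direction. Besides the members, the genes named from each list were the 2 with the smallest p in that test. Of the named genes, DESeq2 called Foxo1, beside 0.86% of all genes. With the replicate block, a pairing the labels do not state, it called Foxo1, Gtse1, Il7r and Pmaip1, beside 3.79% of all genes. Calls among genes picked by their p do not describe the whole lists, in which DESeq2 calls were not counted. Downstream, among 17 apoptosome and caspase genes (median log2 fold change near 0), Casp9, the caspase that the apoptosome activates, had 15.8 to 21.9 CPM in H2afy_KO and 8.54 to 15.7 CPM in H2afy_WT (log2 fold change 0.48, SE 0.21, edgeR adjusted p = 0.635). Birc5, which encodes survivin and is also a mitosis gene, had 115 to 163 CPM in H2afy_KO and 164 to 204 CPM in H2afy_WT (-0.32, SE 0.14). In these 2 of the 17 genes the genotypes did not overlap, beside 4.53% of all genes, but the nearest pools of the groups almost touched. Upstream of Bid, the 10 death-receptor genes had a median of 0.22. There Tnfsf10, the ligand TRAIL, was at 26.2 ± 2.55 and 34.4 ± 2.50 CPM (n = 4 pools each, SD) with a log2 fold change of -0.39 (SE 0.13), and Fas at 3.55 ± 1.69 and 1.5 ± 0.458 CPM (1.24, SE 0.45), each for H2afy_KO and then H2afy_WT.

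The p53 list, which holds Bax, Pmaip1 and Bbc3 as known targets, had 14 of 17 genes tested and a median of -0.02. Ccng1, another target, was at 0.21 (SE 0.13), and Gtse1, which also belongs to the G2 phase, at -0.59 (SE 0.16, edgeR adjusted p = 0.426; DESeq2 with the replicate block, adjusted p = 0.0188). Among 12 genes of the interleukin-7 and STAT5 pathway, a known input to Bcl2 and Mcl1, the median was 0.13. This list mixes upstream and downstream genes of the pathway. The receptor gene Il7r had 321 to 363 CPM in H2afy_KO and 384 to 450.0 CPM in H2afy_WT (-0.32, SE 0.12, edgeR adjusted p = 0.537; DESeq2 with the replicate block, adjusted p = 0.0302), and the survival kinase gene Pim2 was at 0.56 (SE 0.29). The 11 Foxo and Akt genes had a median of -0.09. Foxo1, a transcription factor known to drive Bcl2l11 in other settings, had 26.8, 35.0, 28.6 and 40.5 CPM in pools 1 to 4 of H2afy_KO and 64.0, 87.2, 46.8 and 46.8 CPM in those of H2afy_WT. These groups did not overlap (log2 fold change -0.90, SE 0.22, edgeR adjusted p = 0.419; DESeq2 adjusted p = 0.0217, and 0.00161 to 0.83 over the alternatives). Inpp5d, a phosphatase that opposes PI3 kinase, was at -0.39 (SE 0.15). Among 13 genes for turnover and partners of the proteins, with a median of 0.01, Trim17 was at -1.10 (SE 0.53) from under 1 CPM, and Ppp3ca at 0.20 (SE 0.12).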

How the data were processed

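RNA-seq of sorted progenitor pools gave single reads of 50 bases. The authors deposited raw counts, whole reads for each Ensembl gene without normalization. The alignment used HISAT2 2.0.6 and mm9, per the submitters' processing notes. The counting program, annotation and strand setting were not given in the sources used here. GENCODE M1 (NCBIM37, the same assembly) named 37205 of 37991 identifiers and gave exon lengths; all 170 list symbols matched, 2 by a synonym. RefSeq promoter windows (GRCm38.p6) were matched exactly to NCBIM37. No 2 samples agreed within sampling noise (chi-square per degree of freedom of at least 92.2 in 28 pairs).

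Genotypes were compared with edgeR 4.0.16 and its quasi-likelihood test (TMM, filterByExpr with a minimum count of 10, robust) in R 4.3.3, with Benjamini-Hochberg adjustment over 13722 genes and a threshold of 0.05. A second fit added the log2 immunoglobulin percent (481 genes). Log2 CPM used a prior count of 2. The alternatives were upper-quartile and RLE factors, DESeq2 1.42.0, limma 3.58.1 (voom with sample weights), no filter, leaving out immunoglobulin genes, a covariate for their share, a replicate block (edgeR and DESeq2) and each of the 8 pools left out. Leaving out both H2afy_KO 3 and 4 was chosen after seeing the data. The members and lists were chosen with earlier results of these data known. The fits were tested on simulated data.

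Both groups carry replicate numbers 1 to 4, whose meaning the labels leave unsaid. Pools of the same number deviated together from their group means (r of 0.19, 0.19, 0.36 and 0.41 over genes), all above 0.1. For the fits with a replicate block the numbers were therefore read as pairing the pools, and the main test used no pairing. This reading came from the counts and not from the labels. Numbers 3 and 4 also had the higher immunoglobulin shares in both genotypes, so pairing and a common share cannot be told apart. The correlation was higher still between H2afy_KO 1 and H2afy_WT 2 (0.52) and between H2afy_KO 3 and H2afy_WT 4 (0.45). P-values measure the spread between pools, which the labels do not call independent. The text names all members, the tested genes of the rest of the family, up to 4 called genes of each pathway list or else the 2 with the smallest p, and the 3 genes most correlated with Bcl2, Mcl1 and Bcl2l11. The marker genes, Bcl2a1c and overlapping genes named were chosen after their values were seen.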

Additional observations from a re-analysis of the deposited data

Results flagged for a closer look

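In 68 groups of 4 pools, those of the 34 genes named by rule, 2 held a pool far from the other 3 by Dixon's criterion, where chance gives about 1 in 20. Bcl2l11 in H2afy_WT 4 was at 38.2 CPM, against 21.3 to 23.4 CPM in the other H2afy_WT pools. H2afy_KO 4 was at nearly the same level, 38.3 CPM, without standing apart from its group by this criterion. Bcl2l12 in H2afy_WT 4 was at 26.0 CPM, against 34.9 to 35.6 CPM in the other H2afy_WT pools.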

How the results depend on the processing

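Of 737 recomputed fold changes and slopes of 44 results, 681 kept their sign and side of the threshold, 9 passed it only under the alternative, 5 lost it and 42 changed sign. Fold changes of Bcl2, Bcl2l1, Pmaip1, Bid, Bad and Bok kept their sign in all 18 alternatives. Genes called for genotype, 0 in the main test, were 118 with DESeq2, 5 with upper-quartile factors, 16 with no filter, 15 with the replicate block, 520 with DESeq2 and that block, 4 with limma-voom, 3 without immunoglobulin genes, 3 with their share as a covariate and 0 to 1 with each pool left out. Members called were 2 with DESeq2 and the block and 0 in the other alternatives. Genes called for the immunoglobulin share, 260 in the main test, were 927 with DESeq2, 41 with the replicate block and 93 to 381 with each pool left out. Members called for it were 0 with the block and 0 to 1 with each pool left out. The block changed no other call of a member in edgeR.

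Signs turned in these cases. With the replicate block Bak1 was at -0.07 and Bik at -0.12, with DESeq2 and that block at -0.07 and -0.25, and with limma-voom at -0.06 and -0.32, where Bnip3 was at -0.05. Bnip3l was at 0.00026 without immunoglobulin genes. With the share as a covariate Bcl2l11 was at -0.03 and Bik at -0.83. Without both H2afy_KO 3 and 4, Mcl1 was at -0.21, Bcl2l11 at -0.33, Bik at -1.49, Bcl2l13 at 0.07, Bcl2l15 at -3.18 and Pim2 at -0.0037. Slopes with the replicate block were -0.01 for Bcl2, 0.08 for Bcl2l1 and 0.02 for Bax. With each pool left out, fold changes ran from -0.00037 to 0.16 (Bax), -0.30 to 0.30 (Bak1), -0.19 to 0.27 (Bcl2l11), -0.09 to 0.48 (Bcl2l2), -0.43 to 0.05 (Bcl2a1b), -0.25 to 0.69 (Bik), -0.11 to 0.10 (Bnip3) and -0.06 to 0.02 (Bnip3l), and slopes from -0.16 to 0.05 (Bcl2l1) and -0.02 to 0.01 (Bid). The cause of these changes was not tested. Low counts limit Bbc3 (0 to 10 per pool), Bik (0 to 18), Trim17 (3 to 18), Bcl2a1b (6 to 16), Bcl2l15 (3 to 172), Bak1 (23 to 173) and Pmaip1 (23 to 357).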

Other observations

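The genes most like a member in pattern were read as a description over the 8 pools, by Pearson's r of log2 CPM. For Bcl2 they were Arfip1 (r = 0.99), 2210021J22Rik (0.98) and Ero1l (0.97), the last an oxidase of the endoplasmic reticulum. For Mcl1 they were the transferrin receptor gene Tfrc (0.97), the immediate early gene Ier5 (0.97) and the lysosomal protease gene Ctso (0.96). For Bcl2l11 they were the immediate early gene Egr1 (0.98), Tcn2 (0.97) and Cflar (0.97), which encodes the inhibitor of caspase-8 cFLIP. With 13722 genes and 8 pools, high values arise easily.

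Some members also varied together, and others in opposite directions, within the genotypes. Deviations of log2 CPM from the group means correlated most between Bcl2l11 and Bad (r = 0.70), Mcl1 and Pmaip1 (0.64) and Bcl2 and Pmaip1 (0.63). They ran opposite between Bak1 and Pmaip1 (-0.81), Bax and Bcl2l11 (-0.74) and Mcl1 and Bak1 (-0.71). These pairs are the extremes among all pairs of the 9 tested members, and over 8 pools such values arise easily. All points share the pools, their depth and their immunoglobulin share.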
